A study of Homo sapiens with 4 samples.

Results

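The clusters described here are the largest runs of distal H3K27ac peaks in 2 triple-negative breast cancer cell lines. Within each of 3 large peak lists, peaks on chromosomes 1 to 22 and X that lay over 2.5 kb from every canonical gene start site were kept, and neighbouring peaks within the usual stitching distance of super-enhancer callers were joined into a cluster. Clusters were then ranked by the bases that peaks covered. The 300 first-ranked clusters of each list were merged where they overlapped. This gave 378 clusters of 22239 merged distal clusters in all, or 1.7%. Since the clusters were chosen by covered bases, their size is a description and was not tested.

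MDA-MB-231 cells and Hs578T cells come from established human lines of a disease without hormone receptors or HER2 amplification. Per the labels, cells of every library had been starved, were given the cytokine TWEAK at 10 ng/ml for 48 h, and were left without it for another 72 h, whereas the study's own text describes a longer period without it. There were 2 replicates of each line, hence 4 libraries, and all 4 had TWEAK and washout in common. Untreated cells were not analysed here, so nothing below measures an effect of TWEAK.

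H3K27ac is an acetyl mark that histone acetyltransferases such as p300 and CBP place on nucleosomes at active promoters and enhancers. Distal regions in which many marked stretches lie close together often sit at genes that define the state of a cell, and in tumours at oncogenes. When such regions are ranked by signal, the first of them are called super-enhancers. Signal from reads was not used here, and the clusters are therefore called by their size only.

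The list labelled MDA-MB-231 replicate 1 stood apart. It held 209 peaks, against 43353 in MDA-MB-231 replicate 2, 46330 in Hs578T replicate 1 and 44920 in Hs578T replicate 2. Only 2 of the 209 peaks fell in the 378 clusters, and this list entered no ranking. Line MDA-MB-231 is therefore represented by 1 list, and a difference between lines cannot be told apart from a difference between libraries. Read numbers were not used, so depth is unknown. The 3 large lists had promoter peaks at the mesenchymal markers VIM, CD44, AXL and CAV1, and none at ESR1, GATA3, FOXA1, ESRP1 or CDH1. KRT8, a keratin of simple epithelia, had a promoter peak in each of them. Where 3 values follow each other below, they are from MDA-MB-231 replicate 2, Hs578T replicate 1 and Hs578T replicate 2, in this order. Coordinates are of hg38.

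Stretches of 200 bp inside the peaks of 5 clusters are shown to let the sequence of these regions be seen. They hold the AP-1 motif, TGACTCA or its reverse complement TGAGTCA, the site bound by FOS and JUN family dimers, which act downstream of JNK and many growth factor receptors. Capitals mark each match, and all sequences are 5′ to 3′ on the plus strand of hg38. At ADAMTS12, NRP1, AOPEP and CHRM3, which are among the first clusters by mean rank, the stretch with the most matches among peaks called in all 3 lists was taken, a choice made after seeing the data. CDCP1 was the only one of the first 40 clusters in which the central 200 bp of the strongest common peak held a match.
ADAMTS12: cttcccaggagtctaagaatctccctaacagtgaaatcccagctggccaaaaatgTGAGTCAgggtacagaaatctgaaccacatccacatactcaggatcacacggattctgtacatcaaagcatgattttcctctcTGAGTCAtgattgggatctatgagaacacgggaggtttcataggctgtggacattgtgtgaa
NRP1: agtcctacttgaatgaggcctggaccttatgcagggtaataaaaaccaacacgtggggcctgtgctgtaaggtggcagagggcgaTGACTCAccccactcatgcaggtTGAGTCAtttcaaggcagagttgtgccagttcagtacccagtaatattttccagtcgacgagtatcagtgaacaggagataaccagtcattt
AOPEP: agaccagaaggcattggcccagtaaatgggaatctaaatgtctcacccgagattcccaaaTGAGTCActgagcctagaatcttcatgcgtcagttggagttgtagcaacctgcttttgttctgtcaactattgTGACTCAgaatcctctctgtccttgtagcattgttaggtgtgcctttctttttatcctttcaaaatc
CHRM3: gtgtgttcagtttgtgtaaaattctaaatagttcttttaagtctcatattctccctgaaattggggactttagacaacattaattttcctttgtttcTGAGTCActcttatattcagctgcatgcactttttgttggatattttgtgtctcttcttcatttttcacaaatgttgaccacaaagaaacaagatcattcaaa
CDCP1: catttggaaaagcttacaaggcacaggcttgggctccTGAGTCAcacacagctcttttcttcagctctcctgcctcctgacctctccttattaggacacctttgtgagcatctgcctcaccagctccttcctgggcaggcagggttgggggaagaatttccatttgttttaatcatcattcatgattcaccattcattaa
The first is chr5:33788957-33789156, in an intron of ADAMTS12, with matches that start at bases 56 and 139. The second is chr10:33134163-33134362, in the NRP1 cluster but outside every protein-coding and lncRNA gene, with 1 match in each orientation, at bases 86 and 109. The third is chr9:95018430-95018629, in an intron of AOPEP, with matches at bases 61 and 134. The fourth is chr1:238644990-238645189, between genes and 741 kb from the start of CHRM3, with 1 match at base 98. The last is chr3:45123940-45124139, in an intron of CDCP1, with 1 match at base 38. Fold enrichment of the peaks that hold these stretches was 21.6, 20.01 and 19.4 at ADAMTS12 and 24.3, 23.8 and 19.3 at CDCP1, in which fold enrichment is the authors' ratio of signal over local background at a peak. It was lower at the others, with 11.5, 10.4 and 11.1 at NRP1, 11.7, 11.1 and 10.2 at AOPEP, and 14.3, 18.6 and 17.1 at CHRM3.

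Cluster size fell without a step. The largest cluster of each list held 54.9, 81.6 and 78.6 kb of peaks, and the cluster ranked 150 held 17.9, 20.1 and 18.7 kb. The last 2 clusters inside the limit of rank 300 covered 13909 and 13891 bp in MDA-MB-231 replicate 2, and the next 2 outside it covered 13883 and 13848 bp. The corresponding 4 clusters covered 15075, 15049, 15032 and 15003 bp in Hs578T replicate 1. In Hs578T replicate 2 they covered 14558, 14552, 14513 and 14491 bp. The 300 clusters of a list are thus a share of 1.6%, 1.5% and 1.54% of its clusters, cut from a continuous range. They held 6.10%, 6.10% and 6.27% of the distal peaks and 13.0%, 13.0% and 13.1% of the distal bases.

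**Figure D1:**
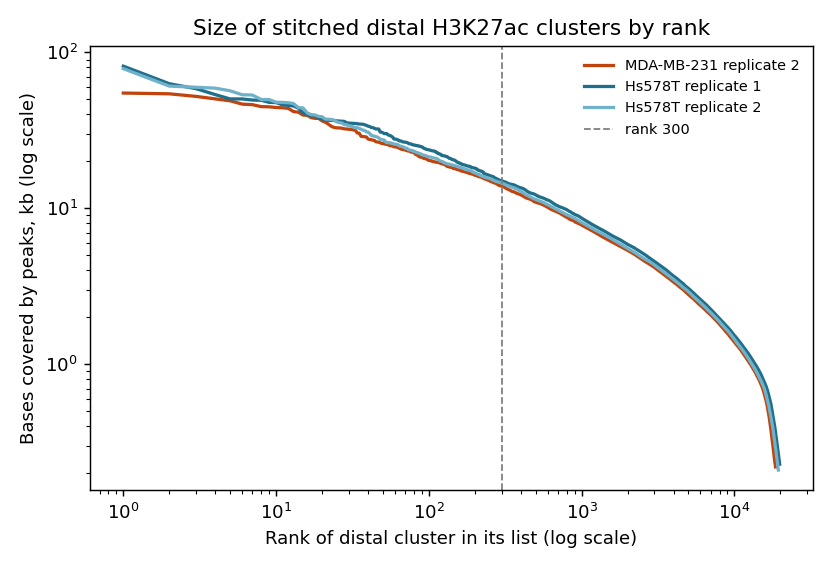
Bases covered by peaks (kb, log scale) against the rank of a distal cluster (log scale) in each large list, with a dashed line at rank 300. The 3 curves run close together and pass rank 300 at 13.9, 15.0 and 14.6 kb without a step.

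A typical cluster was a series of wide peaks with gaps between them in which no distal peak was kept. The median span was 39.98, 43.0 and 41.8 kb, and peaks covered about the same part of it in each list, with a median of 49.6%, 50.1% and 50.3%. A cluster held a median of 5, 6 and 6 peaks and at most 18, 25 and 21, and only 2, 9 and 6 of 300 clusters were 1 unbroken peak. The widest peak held a median of 41.3%, 42.4% and 40.4% of the covered bases. Other distal clusters had a median of 1 peak and a span of 1.58, 1.64 and 1.61 kb. Peaks in the first 300 clusters were wider, at a median of 2286, 2224 and 2180 bp, than other distal peaks, at 1188, 1206 and 1168 bp. Width enters the ranking. Height does not, and the median fold enrichment was 6.42, 5.41 and 5.21 in these clusters and 4.69, 4.35 and 4.29 in the others. Of peaks in the first 300 clusters, 15.0%, 13.0% and 13.9% belonged to the 5% of distal peaks with the highest fold enrichment, against 4.34%, 4.48% and 4.404% of peaks elsewhere. Height and width come from the same peak calls, and this difference was not tested.

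Most clusters were shared. Of 378, 222 ranked in the first 300 of all 3 lists (58.7%, 95% Wilson interval 53.7 to 63.6) and 292 in at least 2. The largest group outside these was 38 clusters in MDA-MB-231 replicate 2 alone, followed by 33 in both Hs578T lists and not in MDA-MB-231 replicate 2. Another 28 were in Hs578T replicate 2 alone, 22 in MDA-MB-231 replicate 2 and Hs578T replicate 1, 20 in Hs578T replicate 1 alone, and 15 in MDA-MB-231 replicate 2 and Hs578T replicate 2. In pairs, 258 of 300 clusters of Hs578T replicate 1 overlapped one of Hs578T replicate 2 (86.0%, 81.6 to 89.5). For MDA-MB-231 replicate 2, 247 overlapped Hs578T replicate 1 (82.3%, 77.6 to 86.2) and 240 overlapped Hs578T replicate 2 (80.0%, 75.1 to 84.1). The intervals cover counting error only, and those of the pair within Hs578T and of the pairs across lines overlapped.

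**Figure D2:**
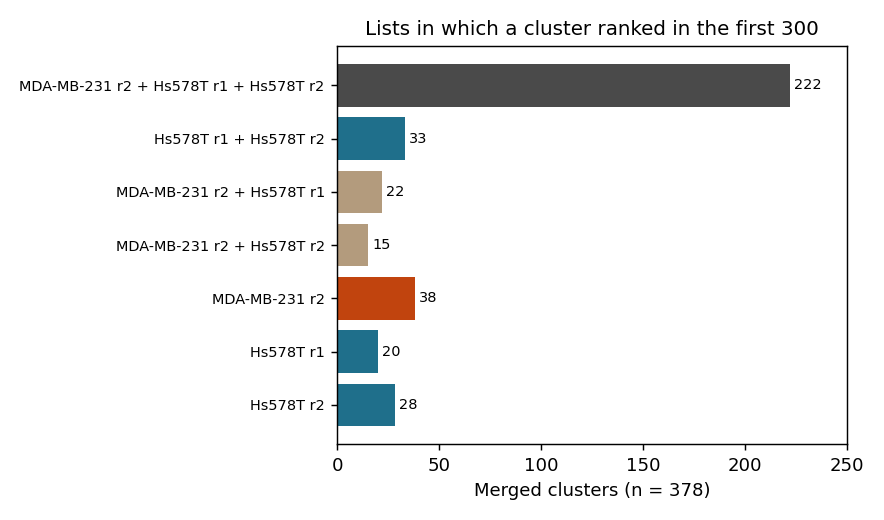
Number of merged clusters (n = 378) by the set of lists in which they ranked in the first 300 (r1 and r2 are replicates 1 and 2). The bar for all 3 lists reaches 222, and no other bar passes 38.

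Absence from the first 300 of a list was mostly a matter of rank. All 300 clusters of each large list overlapped a distal peak of both other large lists, and 94.0% to 97.3% overlapped 1 of the first 600 clusters. Any overlap counted, and long clusters meet a peak more easily. No share of smaller clusters is set beside these values. The order near the top was less alike, with 5 of the first 10 clusters shared between the Hs578T lists, 7 between MDA-MB-231 replicate 2 and Hs578T replicate 1, and 6 between MDA-MB-231 replicate 2 and Hs578T replicate 2. Among the first 100, the shared numbers were 85, 78 and 74. Across the 378 clusters, the list with the most covered bases held a median of 1.17 times those of the list with the fewest. The ratio was at most 1.5 in 337 clusters and above 2 in 10.

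The first 40 shared clusters by mean rank covered between 25.8 and 84.5 kb in any list and spanned 43.3 to 212 kb. A merged cluster can hold several clusters of 1 list, so it can cover more than the largest single cluster. The 40 belonged to 38 genes, in which the gene of a cluster is the protein-coding gene it overlaps most, or otherwise the one with the nearest start site. Within the 40, MDA-MB-231 replicate 2 had the fewest covered bases in 23 and the most in 8. The spread was small, at a median ratio of 1.18 between the highest and the lowest list, and 37 clusters stayed within 1.5.

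**Figure D3:**
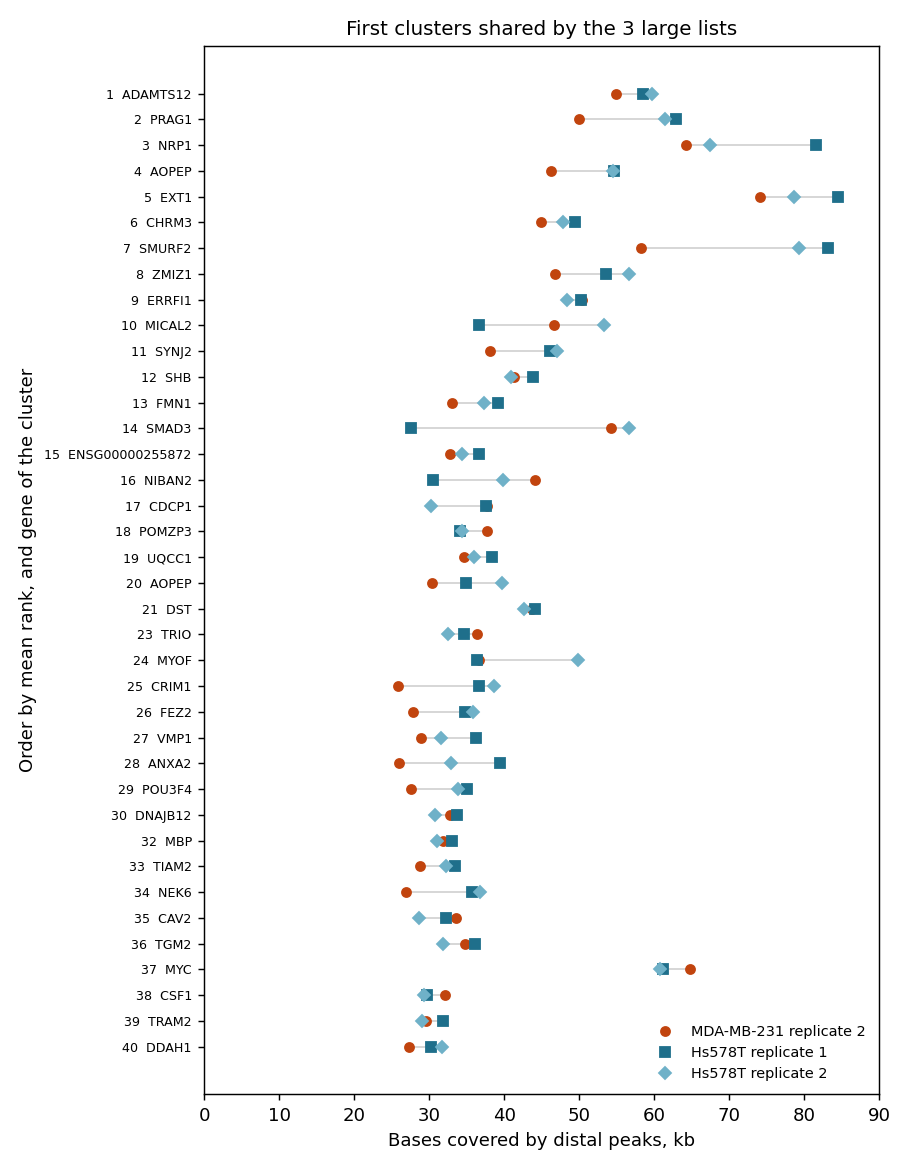
Bases covered by distal peaks (kb) in the 3 large lists for 38 of the 40 shared clusters with the best mean rank, each row labelled with its order and gene, the grey line joining its lowest and highest list. Points lie between 25.8 and 84.5 kb, and SMAD3 and MICAL2 show Hs578T replicate 1 well below the other lists.

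The first cluster was at a gene of a matrix enzyme. ADAMTS12, a secreted metalloproteinase of the extracellular matrix, had the first cluster, chr5:33761066-33860188, which lay wholly inside the gene, 31.8 kb from its start. It covered 54.9, 58.5 and 59.7 kb in 13, 11 and 12 peaks and ranked 1, 3 and 3. The promoter of ADAMTS12 was also marked, at a fold enrichment of 16.0, 15.9 and 14.1. EXT1, a polymerase of heparan sulfate, had the cluster with the most covered bases on average, chr8:117900995-118037496, with 74.1, 84.5 and 78.6 kb. MDA-MB-231 replicate 2 was the lowest of the 3 lists. TGM2, which crosslinks proteins, had 34.8, 36.1 and 31.9 kb, close in the 3 lists. Its promoter peak differed more, at a fold enrichment of 4.01, 18.9 and 18.8. CDCP1, a membrane protein and substrate of SRC kinases, had 37.7, 37.5 and 30.3 kb.

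Receptors and a feedback inhibitor were among the first 10. NRP1, a co-receptor for semaphorins and VEGF, had a cluster of 64.2, 81.6 and 67.5 kb at chr10:33121853-33281331, of which 104 kb lay inside the gene and the rest beyond it. Hs578T replicate 1 was highest, and Hs578T replicate 2 was nearer to MDA-MB-231 replicate 2. ERRFI1, an inhibitor that EGFR signalling induces, had 50.4, 50.3 and 48.4 kb at chr1:8070112-8185291, a cluster that overlapped no protein-coding gene and lay 43.8 kb from its start. The 3 lists were level. SHB, an SH2 adaptor of receptor kinases, had 41.3, 43.9 and 40.9 kb, again close together. CHRM3, a muscarinic acetylcholine receptor, is named only as the nearest start site. Its cluster, chr1:238627828-238693702, held 44.9, 49.5 and 47.8 kb in 8 peaks in every list, lay 693 kb from CHRM3, and CHRM3 had no promoter peak in any list. CSF1, the growth factor of macrophages, had 32.1, 29.7 and 29.3 kb beside and over its gene.

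The TGF-β pathway had 2 of the first 14 positions. SMURF2, a ubiquitin ligase that limits TGF-β signalling, had the longest span of all, 212 kb at chr17:64530693-64743045, with 58.2, 83.2 and 79.3 kb in 20, 36 and 32 peaks. Both Hs578T lists were above MDA-MB-231 replicate 2. The highest peak in this cluster reached a fold enrichment of 37.9, 46.0 and 34.8. SMAD3, which carries the signal from the receptors to the nucleus, had 54.2, 27.5 and 56.7 kb at chr15:67072653-67139037. The low value of Hs578T replicate 1 went with the removal of a wide peak that reached a start site: with all peaks counted, the 3 values were 54.2, 63.5 and 56.7 kb. CRIM1, a membrane protein that binds bone morphogenetic proteins, had 25.8, 36.6 and 38.7 kb, lowest in MDA-MB-231 replicate 2.

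Several genes of the cytoskeleton and of membranes were among the 40. MICAL2, an enzyme that oxidises actin, had 46.6, 36.6 and 53.3 kb. FMN1, a formin that nucleates actin filaments, had 33.0, 39.2 and 37.3 kb in the far part of a long gene, 310 kb from its start. Its promoter had a peak only in MDA-MB-231 replicate 2, a weak one at a fold enrichment of 3.43. DST, a linker of filament systems, had 43.8, 44.1 and 42.7 kb, nearly the same in the 3 lists. TRIO and TIAM2, guanine nucleotide exchange factors, had 36.4, 34.6 and 32.5 kb and 28.8, 33.5 and 32.2 kb. MYOF, which repairs membranes, had 36.7, 36.4 and 49.8 kb, with Hs578T replicate 2 above both other lists. ANXA2, a calcium-dependent membrane binder, had 25.9, 39.4 and 32.9 kb. CAV2, a caveolin, had 33.6, 32.3 and 28.6 kb. SYNJ2, an inositol phosphatase of endocytosis, had 38.1, 46.1 and 47.0 kb.

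Other regulators of transcription were also among the 40. ZMIZ1, a coactivator, had 46.8, 53.6 and 56.6 kb, lowest in MDA-MB-231 replicate 2. MYC, a driver of cell growth, was the nearest protein-coding start of a cluster inside the lncRNA gene PVT1, chr8:127799314-127933128, with 64.8, 61.2 and 60.8 kb. A second cluster 430 kb from MYC, which also overlapped PVT1, had 22.5, 22.4 and 21.2 kb and was alike in the 3 lists. POU3F4, a factor of neural development, was the nearest start of an X-linked cluster of 27.6, 35.1 and 33.8 kb from which it lay 758 kb away, without a promoter peak. Other genes of the first 40 were PRAG1, AOPEP with 2 clusters, ENSG00000255872, NIBAN2, POMZP3, UQCC1, FEZ2, VMP1, DNAJB12, MBP, NEK6, TRAM2 and DDAH1. Their clusters covered from 26.9 kb, at NEK6 in MDA-MB-231 replicate 2, to 63.0 kb, at PRAG1 in Hs578T replicate 1. Of the 38 genes, 35 had a promoter peak in all 3 lists.

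Counts over gene lists widen this view. The 378 clusters had 328 genes, or 1.64% of 19970 protein-coding genes, and the 222 shared clusters had 201 genes, or 1.01%. Of 379 genes in 16 lists chosen with earlier results of these data known, 60 were the gene of a cluster (15.8%) and 38 of a shared one. The highest share was in integrins and focal adhesion, with 10 of 27 genes (37.0%), of which 4 were in shared clusters. Receptor kinases and their feedback genes had 9 of 35, the TGF-β, BMP and SMAD pathway had 6 of 31, and caveolae and membrane scaffold had 5 of 22. RUNX and ETS factors had 4 of 15, the Hippo pathway 4 of 25, axon guidance 4 of 23, and KLF, MYC and other growth regulators 3 of 21. Matrix proteins had 2 of 27, proteases and their inhibitors 2 of 28, and luminal and epithelial genes 2 of 24. AP-1 and ATF factors had 1 of 20, the NF-κB pathway with the TWEAK receptor 1 of 22, and EMT factors 0 of 10. Housekeeping genes, with a median length of 20.1 kb, had 0 of 14, and 13 of them had a promoter peak in each list. In lists this short, 0 is close to the share of all genes, and nothing is read from it. All counts are read against the 1.64% of all genes, and no list was tested. By shared clusters alone the order differed, with 7 of 35 receptor kinase genes (20%), 3 of 15 RUNX and ETS factors (20%) and 4 of 22 caveolar genes (18.2%) above the 4 of 27 of integrins (14.8%).

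**Figure D4:**
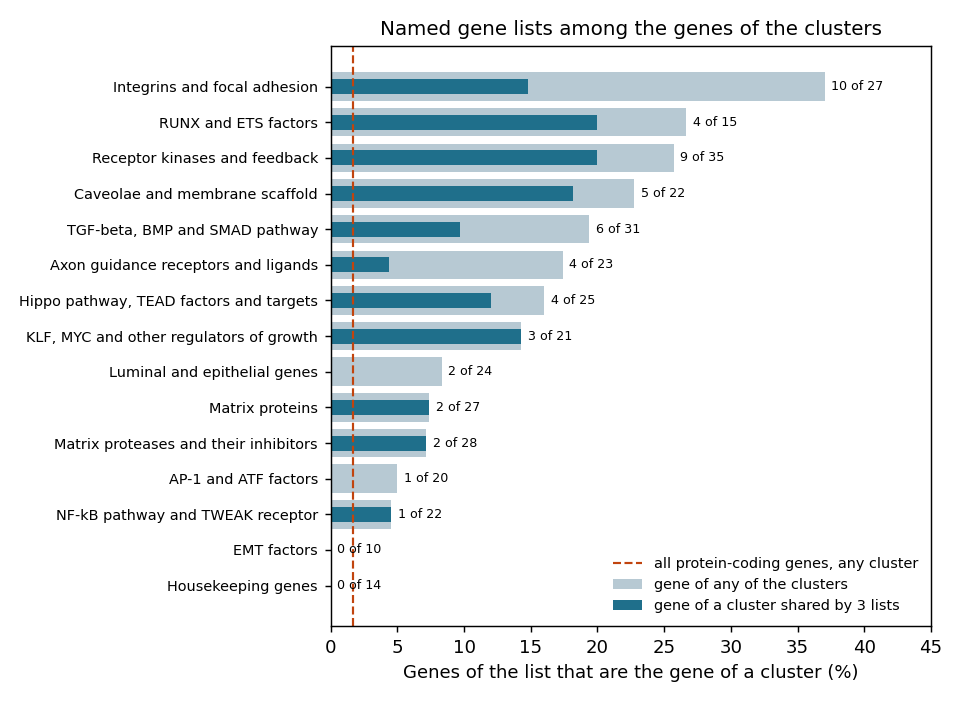
Percentage of genes of 15 lists that were the gene of a cluster, for all 378 clusters (wide bars, with counts) and for the 222 shared ones (narrow bars), beside the 1.64% of all protein-coding genes (dashed line). Integrins and focal adhesion reach 10 of 27. EMT factors and housekeeping genes are at 0, close to the dashed line.

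Gene length moved with these counts. Genes of clusters had a median length of 119 kb, against 27.5 kb for all protein-coding genes. Among all genes, 0.548% of those under 10 kb and 6.28% of those over 200 kb were the gene of a cluster. In the lists, the shares in the same length bands were 4.76% and 29.5%. Since the lists were chosen with earlier results known, nothing is read from this difference. The lists of integrins and of RUNX and ETS factors had median lengths of 101 and 100 kb. The part of length in the counts of single lists was not tested.

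In the adhesion list, ITGB1, the β subunit of most matrix receptors, had 17.9, 18.3 and 16.6 kb, and LPP, a focal adhesion protein, had 23.8, 24.8 and 22.6 kb. Both ranked in the first 300 of every list. VCL, the actin linker vinculin, had 17.3, 29.4 and 26.4 kb, lower in MDA-MB-231 replicate 2. ITGB6 was the nearest start of a shared cluster of 16.7, 17.3 and 17.2 kb but had no promoter peak. ITGA2, ITGA6, ITGB5, PTK2, PXN and PDLIM5 had clusters in 1 or 2 lists. Of these, ITGA6, which pairs with β4 at the basement membrane, differed little, with 14.8, 14.2 and 14.1 kb and ranks of 260, 354 and 324.

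Of the TGF-β list, TGFB2, a ligand, had 3 clusters, of which the one over the gene held 21.996, 38.7 and 35.5 kb and the next, downstream of it, 26.7, 25.3 and 25.7 kb. The first was lower in MDA-MB-231 replicate 2 and the second was level. TGFBR2, a receptor, lay 247 kb from a cluster of 16.3, 15.0 and 14.8 kb. SMAD3 had a second cluster in and beyond the end of the gene with 12.6, 21.1 and 24.3 kb, and another one before it. SMAD6, an inhibitor, had 12.47, 15.2 and 13.6 kb, and LTBP2, which belongs to the binding proteins of latent TGF-β, had 12.52, 15.3 and 13.4 kb. Both passed into the first 300 in Hs578T replicate 1 only.

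Among receptor kinase genes, EGFR had a shared cluster of 27.7, 28.4 and 18.8 kb over the first part of the gene. A second, 107 kb from its start, had 18.2, 15.6 and 13.2 kb and ranked in the first 300 of MDA-MB-231 replicate 2 alone. PDGFC, a ligand, had 2 shared clusters, and EPHA2, an ephrin receptor, had 17.3, 19.6 and 17.5 kb. MET and IGF1R had a cluster in the first 300 of Hs578T replicate 2 alone, with 13.5, 14.8 and 16.4 kb at MET. IGF1R had 22.2, 19.5 and 21.4 kb, the most in MDA-MB-231 replicate 2, and best ranks of 346, 406 and 100. Feedback inhibitors of the ERK pathway were present with SPRY4, which had 3 clusters, and with DUSP4 and DUSP5. The DUSP4 cluster lay 304 kb from its start and was level at 17.5, 17.3 and 17.5 kb.

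Among genes of transcription factors, ETS1 had 26.8, 45.3 and 44.2 kb and ranked 282, 13 and 14, with both Hs578T lists well above MDA-MB-231 replicate 2, but its canonical start carried no peak in any list. RUNX1 had a pair of shared clusters, the larger with 18.5, 20.4 and 19.0 kb, and RUNX2 had 21.6, 21.6 and 19.2 kb. HMGA2, an architectural factor of mesenchymal tumours, had 4 clusters, the most of any gene, with 17.6, 25.9 and 22.5 kb in the one shared by all lists. The 4 include clusters 128 and 211 kb from its start that did not overlap it and were assigned by nearest start only. FOSL2 was the only AP-1 gene, with 9.65, 15.6 and 14.6 kb and ranks of 459, 274 and 297. In the Hippo pathway, WWTR1, which encodes the coactivator TAZ, had 24.3, 27.8 and 26.3 kb, FRMD6 had 18.0, 23.5 and 23.2 kb, and the target gene CCN1 had 16.6, 18.1 and 18.3 kb. IKBKB, the kinase of canonical NF-κB signalling, had 23.7, 20.1 and 19.8 kb. CDK6, a G1 kinase, had 24.4, 24.1 and 22.7 kb.

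Neither of the 2 luminal genes was overlapped by its cluster. GATA3, a luminal factor without a promoter peak in any list, was the nearest start of a cluster 310 kb away with 9.38, 12.7 and 14.7 kb, which ranked in the first 300 of Hs578T replicate 2 alone. ELF3, an epithelial factor, lay 7.35 kb from a cluster of 16.1, 13.5 and 12.2 kb that ranked in the first 300 of MDA-MB-231 replicate 2 alone.

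The 33 clusters in both Hs578T lists alone were not absent from MDA-MB-231 replicate 2. Their rank there ran from 309 to 11550 with a median of 422, and 24 were within the first 600. They covered a median of 17.4 kb in the Hs578T lists and 13.7 kb in MDA-MB-231 replicate 2. The 8 largest belonged to SAMD4A, PDLIM5, PLS3, SMAD3, CD9, PALLD, FBXO16 and CCDC171. SAMD4A, an RNA-binding repressor of translation, had 29.2, 38.3 and 37.3 kb, and PDLIM5, a scaffold at actin bundles, had 23.6, 33.6 and 35.3 kb. PLS3, an actin bundler, had 18.0, 26.5 and 24.8 kb. In these 3 the Hs578T values lay together above MDA-MB-231 replicate 2. CCDC171 did not show this, with 19.2, 20.2 and 18.9 kb, and in MDA-MB-231 replicate 2 these bases were split into smaller clusters, the largest of 9.81 kb.

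The 38 clusters of MDA-MB-231 replicate 2 alone had a median rank of 378.5 and 404.5 in the Hs578T lists. The 8 largest belonged to IRAK2, DPYSL2, UGCG, MYO18A, SLC37A2, RAD51B, EGFR and SEMA7A. IRAK2, a kinase of Toll-like and interleukin-1 receptors, had 25.2, 18.3 and 16.4 kb, and DPYSL2, a regulator of microtubules, had 23.7, 13.6 and 13.0 kb. In both, MDA-MB-231 replicate 2 stood above the Hs578T lists. UGCG and SEMA7A did not show this, with 21.3, 22.4 and 23.7 kb and with 17.5, 17.7 and 17.2 kb. Their best clusters ranked 445 and 305, and 492 and 437, in the Hs578T lists. RAD51B had 18.3, 16.8 and 16.9 kb. MYO18A, an unconventional myosin, had 19.9, 6.41 and 10.6 kb of distal peaks but 25.8, 29.3 and 25.5 kb of all peaks. SLC37A2, a sugar phosphate transporter, had 19.7, 7.13 and 7.25 kb of distal peaks and 19.7, 18.6 and 18.6 kb of all peaks. In these the gap came with wide peaks that reached a start site in the Hs578T lists and were dropped whole. Of the 38, 36 had bases of all peaks in Hs578T replicate 1 that reached 80% of the distal bases in MDA-MB-231 replicate 2. In Hs578T replicate 2, 33 did. With distal peaks on both sides, these numbers were 32 and 29. For the 33 clusters of the Hs578T lists, the mark was 80% of their mean distal bases there. All peaks of MDA-MB-231 replicate 2 reached it in 18, and its distal peaks in 16.

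With all peaks counted, the highest list held over 2 times the bases of the lowest in 3 clusters, against 10 with distal peaks. A cluster whose span held the whole of BLID, at chr11:122091619-122129966 over the lncRNA gene MIR100HG, had 3.30, 22.9 and 13.4 kb of all peaks. ANXA5, an annexin, had 5.58, 10.7 and 15.0 kb, and a cluster in HMGA2 at chr12:65901734-65942116 had 9.44, 19.5 and 18.6 kb. In all 3 both Hs578T lists were above MDA-MB-231 replicate 2, and the Hs578T lists also differed from each other at BLID and ANXA5. The highest distal peak reached a fold enrichment of only 2.70, 3.18 and 3.54 at BLID. It reached 3.40, 3.52 and 3.63 in the HMGA2 cluster and 7.61, 8.06 and 6.56 at ANXA5. At BLID and HMGA2 even these lay below the median of other distal peaks given above. At MYH9 and EHD1 larger gaps of distal bases closed when all peaks were counted. MYH9, a nonmuscle myosin, went from 35.7, 2.58 and 29.1 kb to 35.7, 37.6 and 34.3 kb, and EHD1, of endocytic recycling, went from 1.23, 16.2 and 20.9 kb to 32.0, 29.1 and 24.6 kb.

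In covered bases, MDA-MB-231 replicate 2 was below both Hs578T lists in 201 of 378 clusters (53.2%), between them in 96 and above both in 81 (21.4%). In 2515 other merged clusters with at least 5 kb covered in a list, the shares below and above were 51.8% and 20.8%. Because lists differ in total length, each cluster was also taken as a share of the distal bases of its list, and the balance then turned. On this scale MDA-MB-231 replicate 2 was above both Hs578T lists in 173 of 378 clusters (45.8%), between them in 75 and below both in 130 (34.4%). In the 2515 other clusters, the shares above and below were 41.9% and 30.2%. With all peaks, as a share of all peak bases, 39.9% of the 378 were above and 39.7% below. The log2 ratio of MDA-MB-231 replicate 2 to the mean of the Hs578T lists had an SD of 0.37 over the 378 clusters, and that between the Hs578T lists had an SD of 0.28. With all peaks these were 0.25 and 0.15. Clusters are not replicates, and no test between lines was made.

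Most clusters were in genes. Of 378, 293 overlapped a protein-coding gene (77.5%, 73.0 to 81.4), and 207 lay wholly inside one. By list, 76.7%, 79.0% and 77.0% of the first 300 clusters overlapped a protein-coding gene, against 58.0%, 58.1% and 58.3% of other distal clusters, which are shorter. By covered bases, which do not depend on span, 70.2%, 72.1% and 71.1% lay in protein-coding genes, against 57.5%, 57.8% and 57.7% elsewhere. Protein-coding genes cover 42.9% of these chromosomes. Exons took 2.88%, 2.68% and 3.01% of the covered bases. Another 85 clusters overlapped no protein-coding gene, and 46 of these overlapped a lncRNA gene.

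The genes of clusters mostly had marked promoters, a measure that the ranking did not use. A promoter peak within 1 kb of the canonical start was present in all 3 lists for 271 of 328 genes (82.6%, 78.2 to 86.3). By list, 84.5%, 85.7% and 83.5% of the 328 had one, against 58.1%, 58.2% and 56.4% of all protein-coding genes. Genes of smaller distal clusters had one in 68.2%, 69.1% and 67.0%. A further 44 genes had none in any list. Of these, 25 belonged to shared clusters, among them CHRM3, POU3F4, SLC44A3, DKK3, ETS1, CCR7 and ITGB6. Only the canonical start of a gene was searched.

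Some clusters lay far from protein-coding start sites. Of 378, 85 were over 100 kb from every one (22.5%), although 46 of the 85 overlapped a protein-coding gene. No such share of other distal clusters is given here, so 22.5% is not read as high or low. The median distance to the nearest canonical start of any gene was 9.39, 9.40 and 8.81 kb for the first 300 clusters. For other distal clusters, which are shorter, it was 15.7, 15.8 and 15.8 kb. The farthest nearest start was TFAP2A, 876 kb from a cluster of 14.8, 13.4 and 12.4 kb. Then followed POU3F4, METTL15 at 701 kb and CHRM3. KCNA4, a potassium channel gene, lay 683 kb from a shared cluster of 15.8, 21.3 and 20.5 kb. THBS1, a matrix glycoprotein, was the nearest start of a pair of shared clusters 364 and 439 kb away, each over a lncRNA gene, with 19.1, 20.9 and 18.9 kb in the first. None of the clusters at TFAP2A, POU3F4, CHRM3 and KCNA4 had a promoter peak at the named gene, whereas METTL15 and THBS1 had one in each list.

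Some clusters lay near each other. Of 378, 87 had another within 100 kb (23.02%), in 40 groups, 7 of which held 3 clusters. No such share of other distal clusters is given here, so 23.02% is not read as high or low. The group at CRIM1 and FEZ2, chr2:36362058-36581269, covered 87.7, 117 and 122 kb in total. The group at EXT1 covered 108, 129 and 113 kb within 293 kb. Others of 3 were at CDC42EP3, an effector of CDC42, and at SPRY4, AOPEP and SMAD3. In all, 41 genes had 2 or more clusters and 8 had 3 or more. By chromosome, the number per 100 Mb was highest on chromosomes 10 and 17, at 21.7 and 21.6, and lowest on chromosomes 16 and 19, at 2.21 and 3.41. The share of all merged clusters that were among the 378 was 2.47% and 1.94% on chromosomes 10 and 17 and 0.354% and 0.372% on chromosomes 16 and 19.

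The AP-1 motif was denser in the peaks of these clusters than between them, and less dense than in other distal peaks. Peaks were cut into tiles of 200 bp, and a tile counted if it held TGACTCA or TGAGTCA. In the first 300 clusters, 6.26%, 5.99% and 6.08% of tiles in peaks held a match, against 2.66%, 2.56% and 2.64% of tiles in the gaps between their peaks. In other distal peaks 9.21%, 8.87% and 9.002% did. A scrambled form with the same letters, TCAGTCA or its reverse complement TGACTGA, which can share bases with a neighbouring AP-1 match, was found in 3.002%, 2.97% and 2.97% of tiles in peaks of the first 300 and in 3.09%, 3.08% and 3.11% in other distal peaks. Tiles with 2 or more AP-1 matches, as shown above at ADAMTS12, NRP1 and AOPEP, made up 0.339%, 0.265% and 0.278% of tiles in these peaks and 0.624%, 0.591% and 0.591% elsewhere. The TEAD motif ACATTCC and its reverse complement were in 3.57%, 3.46% and 3.50% of tiles, against 3.92%, 3.90% and 3.96% in other distal peaks.

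**Figure D5:**
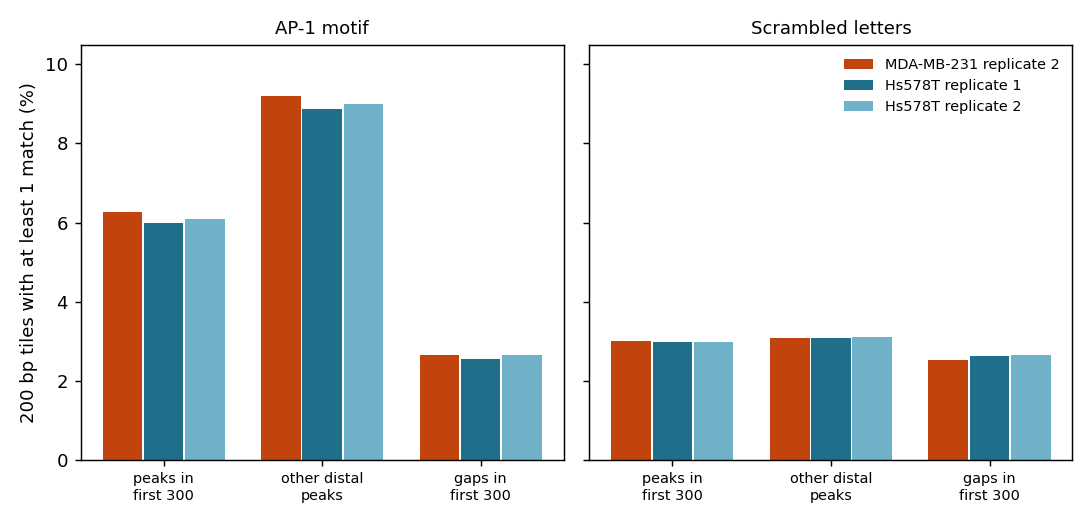
Percentage of 200 bp tiles with at least 1 match to the AP-1 motif (left) or to its scrambled letters (right), in peaks of the first 300 clusters, in other distal peaks and in the gaps within the first 300 clusters, with 1 bar per list. AP-1 stands at 6.26%, 5.99% and 6.08% in the first group, between 2.66%, 2.56% and 2.64% in gaps and 9.21%, 8.87% and 9.002% in other distal peaks, whereas the scrambled letters stay between 2.52% and 3.11%.

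Peak width moved with the motif. In the central 200 bp of a peak, AP-1 was found in 10.1%, 8.54% and 9.79% of peaks of the first 300 clusters and in 18.3%, 17.3% and 16.7% of other distal peaks. Among peaks of at least 2 kb, the shares were 8.61%, 6.85% and 7.19% against 10.3%, 10.0% and 9.81%. The gap was smaller among these wide peaks, whose widths were not matched further. When the whole peak was searched the order turned, with 59.1%, 56.2% and 56.1% against 51.5%, 50.7% and 49.9%. Wider peaks hold more sequence, and the part of this in the turn was not tested. Counted over whole clusters, only 2, 2 and 1 of 300 had no match, and the median cluster held 6.5, 7 and 7. GC content did not differ much, with a median of 45%, 44.5% and 44.5% in the central 200 bp of these peaks and 44.5% in each list elsewhere. These differences were not tested. A match is a description of sequence, and binding of AP-1 was not measured here.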

How the data were processed

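The data were 4 lists of H3K27ac ChIP-seq peaks, 1 per library. Per the study's methods, the authors trimmed reads with Trimmomatic, aligned them to hg38 with Bowtie2, called peaks with MACS2 against input, and removed blacklisted regions. Versions are not given in the sources used here. Each deposited peak carries a score, a fold enrichment (a ratio to the local background), and p and q as −log10 values, all made by the authors. Score was used only in an alternative that kept the stronger peaks, −log10 values were not used, and fold enrichment described peaks, chose the strongest common peak for the sequences and, in an alternative, weighted the ranking.

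Distal peaks were those over 2.5 kb from every canonical start site of GENCODE release 44, with peaks dropped whole. Stitching within 12.5 kb, ranking by covered bases, and gene and motif searches were done in Python 3.11.15 with NumPy 2.4.6, and checked on simulated peaks. Groups came from the sample titles. Depth is unknown. Intervals are at 95% by Wilson's method and cover only counting error. Members and gene lists were chosen with earlier results of these data known, and no test was made.

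Named were the first 40 shared clusters by mean rank, the 8 largest in both Hs578T lists alone and in MDA-MB-231 replicate 2 alone, every listed gene that was the gene of a cluster (the main ones are in the text, and some items are not reported here), clusters far from start sites, and, for sequences, central windows with an AP-1 motif in the first 6 clusters outside chromosome 8. Only CDCP1, taken from the first 40, met that rule, so the other stretches, as well as the clusters with the largest differences between lists, were chosen after their values were seen. Alternatives concerned stitching, start sites, ranking, list length, peak strength, overlap, motif window, gene assignment and left-out lists.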

Additional observations from a re-analysis of the deposited data

How the results depend on the processing

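No paired analysis was possible because the results come from no test, and replicate 1 of MDA-MB-231 held too few peaks to rank. For 15 results, 161 values were recomputed under other settings, of which 120 stayed within 1.5 times the count or within the interval of the percentage. The 222 clusters shared by 3 lists became 66 with the first 100 clusters of each list and 379 with the first 500. Only 1 of the 222 also overlapped a distal peak of MDA-MB-231 replicate 1, a list that was not ranked. With 1 large list left out, 237 to 256 were shared by the others. The 378 merged clusters became 130 and 616 with the first 100 and 500, and 341 to 359 without 1 list. Listed genes fell from 60 to 29 with the first 100, and were 53 to 56 without 1 list. Ranked by span, overlap of MDA-MB-231 replicate 2 with the Hs578T lists was 72.3% and 74.0%, and with replicate 2 it was also 74.0% for the first 100 and 84.7% when only bases near a start site were removed, a setting chosen after seeing the data. With start sites of protein-coding genes only, also added later, the Hs578T lists shared 90%. The share of clusters in protein-coding genes was 72.2% with stitching within 5 kb, 69.1% ranked by width times fold enrichment, 83.1% for the first 100, 83.5% when only bases near a start site were removed, and 77.4% to 78.6% without 1 list. Under that removal 86.6% of genes had a promoter peak in every list. It was 82.6% to 84.5% without 1 list. Counting all peaks, MDA-MB-231 replicate 2 was above both Hs578T lists in 39.9% of clusters.

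The AP-1 share in the first 300 clusters was 11.7% in MDA-MB-231 replicate 2 and 11.4% in Hs578T replicate 1 when ranked by span, and 8.75% in the first 100 of MDA-MB-231 replicate 2. Stitching within 5 kb gave 6.60% and 7.72% in the Hs578T lists, and within 20 kb 10.2% in Hs578T replicate 1. In the central 500 bp it was 21.4%, 19.3% and 20.1%, against 34.4%, 33.1% and 32.9% in other distal peaks. In whole peaks it was 59.1%, 56.2% and 56.1% against 51.5%, 50.7% and 49.9%, and in tiles, added later, 6.26%, 5.99% and 6.08% against 9.21%, 8.87% and 9.002%. Each of these shares comes from 1 list, so leaving out another does not change it. The causes of these changes were not tested. Depth is unknown, so a stretch without a peak in a list cannot be called unmarked.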
